A study of Homo sapiens with 8 samples.

Results

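The genes described here belong to the ciliary transition zone, with one further gene of the cilium base: TMEM107, TMEM231, TCTN1, TCTN2, TCTN3, MKS1, B9D1, B9D2, CC2D2A and KIAA0556. They were taken by symbol from the deposited table of 25435 symbols, and all 10 were present and passed the count filter that left 14898 genes for testing. The choice rested on their known roles, on the intron class of TMEM107 given below, and on measured values. TMEM107 was lower and KIAA0556 higher in cells given ZRSR2 guides. The difference between genotypes is therefore given for these genes as a description, without a test. The data come from SET-2, an established human megakaryoblastic line from an essential thrombocythemia in leukemic transformation, which carries an activating JAK2 mutation in every group. Each of 4 groups held 2 libraries: ZRSR2 guides and non-targeting guides, each in experiments 1 and 2. Within each group, one library came from guide 1 and the other from guide 2. In each genotype, replicate 1 stands for guide 1 and replicate 2 for guide 2 in experiment 1, while replicate 3 stands for guide 1 and replicate 4 for guide 2 in experiment 2. RNA was taken 20 days after the guides were introduced in the first biological replicate and after 25 days in the other; reading these as experiments 1 and 2 is an assumption. The labels do not say whether the cells were a pool or a clone.

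The transition zone is the short region at the base of a primary cilium that controls which membrane proteins enter it. Tectonic proteins, B9 domain proteins and several membrane proteins form a complex there, often called the MKS complex, and loss of single members causes Meckel or Joubert syndrome in people. KIAA0556, now also called KATNIP, binds the microtubule-severing protein katanin and is itself a Joubert syndrome gene. Blood cells are generally regarded as lacking primary cilia, so these genes are measured here in a line where their best-known structure is not expected to be common. ZRSR2 helps the cell find the 3′ end of minor, or U12-type, introns, a small class with its own spliceosome. The values here are counts per gene, which do not show whether a single intron was removed.

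TMEM107 holds a U12-type intron, and its ends are shown because this is the feature that ties the gene to the targeted splicing factor. The principal GENCODE 29 transcript has 4 introns, on the minus strand of chromosome 17. Intron 3 is 1140 bases long and lies between coding exons at chr17:8174617-8175756 on GRCh38. Its sequence was read from an annotated transcript that keeps it. The first 20 bases of each intron follow, 5′ to 3′, with the first 8 in capitals.
Intron 1: GTAAGACCcacggctgcact
Intron 2: GTGAGCTCttgggacggggt
Intron 3: GTATCCTTtctgcctgccca
Intron 4: GTGTGGTAgcatccaatatt
The last 30 bases of intron 3, with the best match to the U12 branch motif in capitals, are:
Intron 3 end: agacttTCCTTAATctcgtgccttcccaag

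Intron 3 alone began with the U12-type start GTATCCTT. The start GTATCCTT or ATATCCTT was found in 58 of 22864 introns of all genes that could be read from a transcript, or 0.254%. In TMEM107 the branch motif TCCTTAAC was matched with 1 mismatch, C8T counted from the motif's 5′ end, and 16 bases followed it before the end of the intron. A start and a branch match with at most 2 mismatches were found together in 0.223% of the readable introns. Of 237 distinct introns annotated for the 10 genes, 19 could be read, 6 of them in TMEM107. Intron 3 of TMEM107 was the 1 match. The choice of genes used the U12-type intron of TMEM107, so this match is a description and not a test. For KIAA0556, B9D2 and CC2D2A no intron could be read, so nothing is known here of their intron class. A match describes letters and does not show how the intron was spliced.

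Promoter sequence, which the choice of genes did not use, was examined next. The X-box, the motif bound by RFX transcription factors at many ciliary genes, was searched as GTTNCC, any 2 bases, then GGNAAC, which reads the same on both strands. The windows ran from 250 bases before to 50 bases after annotated start sites in the RefSeq promoter table, on GRCh38.p14. Of 9 members with a promoter in the table, 1 held an exact match and 6 a match with at most 1 mismatch over the 10 fixed letters. Among 27305 genes with a promoter the shares were 0.593% and 3.27%. Among 101 other ciliary genes on the lists used below, 5 held an exact match (4.95%) and 16 a match with at most 1 mismatch (15.8%). The 6 matches are shown 5′ to 3′ on each gene's strand, with the match in capitals.
TMEM107: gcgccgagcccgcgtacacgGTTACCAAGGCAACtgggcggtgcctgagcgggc
TMEM231: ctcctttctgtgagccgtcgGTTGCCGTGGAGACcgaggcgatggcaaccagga
MKS1: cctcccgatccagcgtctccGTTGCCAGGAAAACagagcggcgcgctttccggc
B9D1: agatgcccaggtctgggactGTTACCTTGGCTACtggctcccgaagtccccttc
B9D2: agcctgctGTTGCCCCAGCAACaaccacgg
KIAA0556: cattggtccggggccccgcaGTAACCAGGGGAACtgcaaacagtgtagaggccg

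The exact match was in TMEM107, within the printed window at chr17:8176392-8176445, and ended 31 bases before the start site. The KIAA0556 window is chr16:27550080-27550133, and its match carried T3A, counted from the motif's 5′ end with the motif's letter first. The other matches carried A12G in TMEM231, G10A in MKS1, A12T in B9D1 and G9A in B9D2. TCTN1, TCTN3 and CC2D2A had at least 2 mismatches in these windows.

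Library totals lay between 31106042 and 71521173 expected counts, the larger total being that of control replicate 3. The members had between 80 and 2745 counts in a library, so that all lay far above a floor of 3 counts. Levels are given as counts per 1000000 counts of a library after TMM scaling (CPM). The line's own markers were present in every library: GATA2, a transcription factor of blood progenitors, averaged 1530 CPM and ITGA2B, the platelet integrin chain, 2338 CPM. Markers of T and B cells were at or near 0, with at most 2 counts of CD3E and 0 of MS4A1 in a library. Of 10 markers of other cell types 6 were tested, and 0 passed between genotypes in edgeR's test. PECAM1, an endothelial marker that platelets also carry, averaged 124 CPM, the epithelial marker EPCAM 10.7 CPM, and KRT8, COL1A2, ALB and COL1A1 between 0.289 and 2.38 CPM. Between experiments EPCAM and COL1A2 rose by 1.58 and 1.47 on the log2 scale and ALB fell by 1.95, and their part in the members' differences between experiments was not tested. ZRSR2 itself averaged 24.8 CPM in the knockout and 39.5 CPM in the control libraries, 62.9% of the control level. Libraries differed mainly by experiment. Between the experiments, 58.2% of tested genes passed the threshold of an adjusted p under 0.05 in edgeR's quasi-likelihood test. Between genotypes 0% did so, in 0 of 14898 genes, while 89 (0.597%) had an unadjusted p below 0.05. Blocking on the experiment left edgeR at 0 calls, and 690 genes (4.63%) then had an unadjusted p below 0.05. The calls of DESeq2 numbered 4 (0.0268%) without a block and 31 (0.208%) when blocked.

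**Figure D1:**
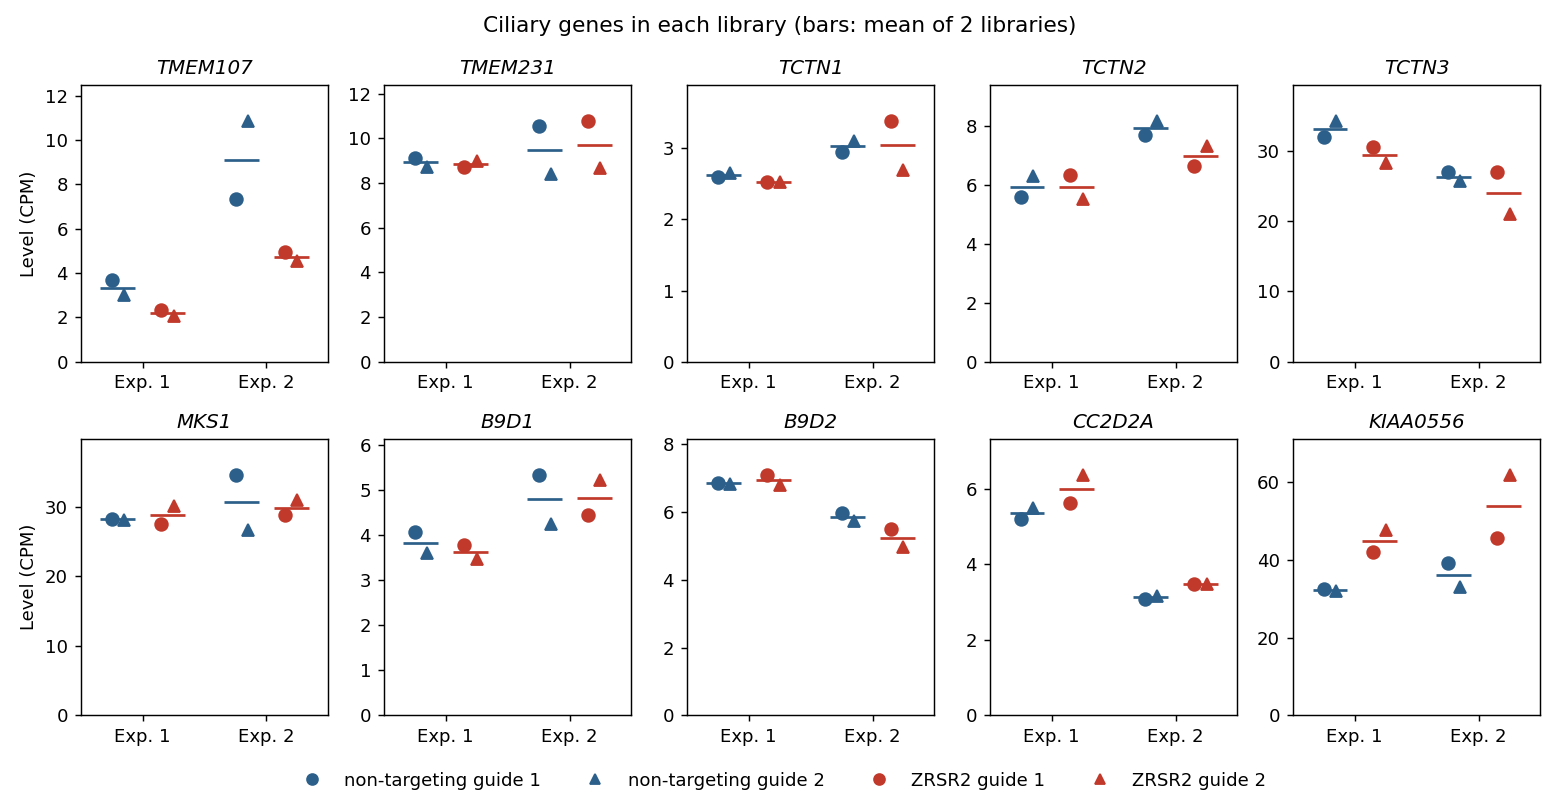
Level in CPM of each of the 10 genes in each of the 8 libraries, by experiment, genotype (colour) and guide (shape), with bars at the mean of 2 libraries. TMEM107 sits lower and KIAA0556 higher with ZRSR2 guides in both experiments, while the genotypes lie close together for most of the others.

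TMEM107 encodes a membrane protein that helps place other members of the complex at the transition zone. The gene lies at chr17:8173237-8176399 on the minus strand of GRCh38. In experiment 1 it was at 2.33 and 2.06 CPM in knockout replicates 1 and 2, and at 3.69 and 2.99 CPM in control replicates 1 and 2. In experiment 2 it was at 4.94 and 4.52 CPM in knockout replicates 3 and 4, and at 7.34 and 10.9 CPM in control replicates 3 and 4. Within each experiment both knockout libraries were below both controls, but over all 8 libraries the genotypes overlapped, because the knockout libraries of experiment 2 lay above the controls of experiment 1. Relative to the control mean, TMEM107 stood at 65.7% in knockout libraries of experiment 1 and at 52% in those of experiment 2. In bulk RNA, fewer cells with a transcript and less transcript per cell cannot be told apart. The log2 fold change over all libraries was −0.85 (SE 0.47) with genotype as the sole term and −0.79 (SE 0.16) with the experiment as a block. Control replicate 4 was the highest library, and without it the log2 fold changes were −0.42 and −0.61, in that order of fits.

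KIAA0556 is the one member outside the transition zone complex and was chosen for the opposite direction. It lies at chr16:27550133-27780369 on the plus strand of GRCh38. In experiment 1 it was at 42.1 and 47.7 CPM in the knockout libraries and at 32.5 and 32.0 CPM in the controls. In experiment 2 it was at 45.6 and 61.9 CPM in the knockout libraries and at 39.1 and 33.1 CPM in the controls. All 4 knockout libraries lay above all 4 controls. Over all tested genes, 0.302% had knockout libraries wholly above the controls and 0.376% wholly below, and nothing is read from this for a gene chosen on that contrast. The log2 fold change was 0.53 (SE 0.14) with genotype alone and 0.53 (SE 0.10) with the block. Guide 2 of ZRSR2 gave the higher level in both experiments.

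The other 8 genes, all of the transition zone complex, had log2 fold changes between −0.16 and 0.16 over all libraries, and in all 8 the genotypes overlapped. Over all 10 genes 7 were lower and 3 higher in knockout, with a median log2 fold change of −0.03 and a median absolute change of 0.08. Over all tested genes these medians were −0.003 and 0.07. TMEM231, like TMEM107 a membrane protein of the zone, ran from 8.67 to 10.8 CPM in the knockout and from 8.38 to 10.5 CPM in the control libraries. Its knockout mean was 101% of the control mean.

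Tectonics are membrane-bound or secreted glycoproteins that act in the same complex. TCTN1 measured 2.53, 2.52, 3.38 and 2.69 CPM in replicates 1 to 4 of the knockout, and 2.59, 2.65, 2.95 and 3.11 CPM in those of the control. TCTN2 was at 6.35, 5.53, 6.65 and 7.31 CPM in knockout and at 5.60, 6.28, 7.68 and 8.16 CPM in control replicates. TCTN3, the most highly counted of the 3, was at 30.5, 28.2, 26.9 and 21 CPM in knockout and at 31.9, 34.2, 26.9 and 25.7 CPM in control replicates. The knockout means were 98.5%, 93.2% and 89.8% of the control means, in that order of genes. TCTN3 had the largest shift of the 3, a log2 fold change of −0.16 (SE 0.15) with genotype alone, about the size of its error. With the experiment as a block it was −0.15 (SE 0.09).

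MKS1, B9D1 and B9D2 share the B9 domain and bind one another in the complex. MKS1 ran from 27.5 to 30.9 CPM in the knockout and from 26.7 to 34.6 CPM in the control libraries. B9D1 ran from 3.48 to 5.23 CPM and from 3.60 to 5.35 CPM, in the same order. B9D2 ran from 4.97 to 7.10 CPM and from 5.74 to 6.86 CPM. Their knockout means were 99.8%, 98% and 95.9% of the control means.

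CC2D2A, a large coiled-coil and C2 domain protein that the zone needs to form, was the remaining gene whose libraries separated within both experiments. It was at 5.62 and 6.38 CPM in the knockout and 5.21 and 5.49 CPM in the control libraries of experiment 1. In experiment 2 it was at 3.47 CPM in both knockout libraries and at 3.09 and 3.16 CPM in the controls. The knockout level was thus 112% of the control level in experiment 1 and 111% in experiment 2, and the log2 fold change was 0.16 (SE 0.30). That fit had genotype as the sole term, and with 1 library left out the value ran from −0.015 to 0.31. With the experiment as a block it was 0.16 (SE 0.12), and 0.12 to 0.19 with 1 library left out. In all, 3 of the 10 genes had genotypes that did not overlap within either experiment, TMEM107 lower and KIAA0556 and CC2D2A higher. Over all tested genes this held for 3.26% with the knockout lower and 2.46% with it higher. The choice of genes used this contrast, so the count is a description.

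**Figure D2:**
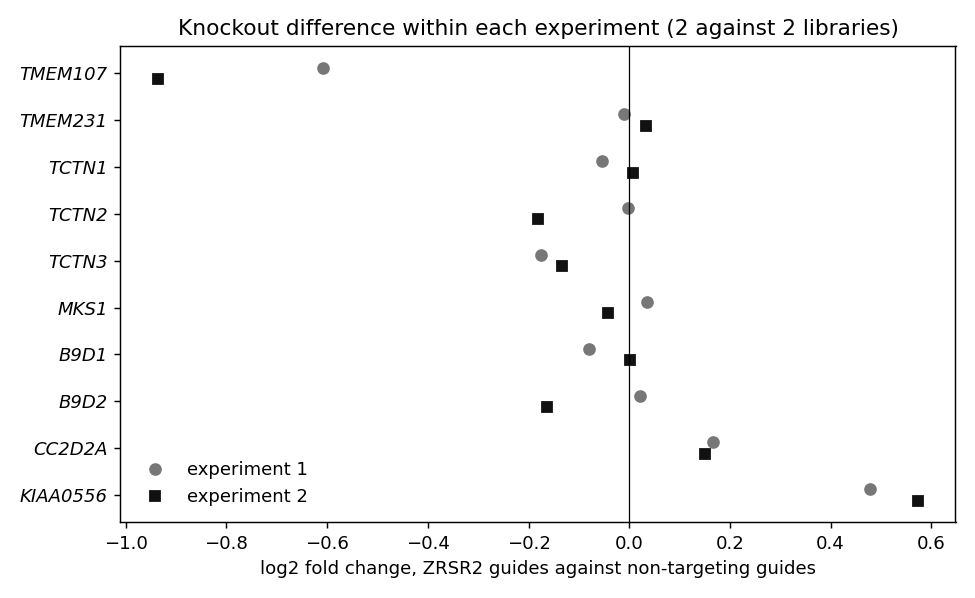
Log2 fold change of ZRSR2 guides against non-targeting guides for each gene, fitted within experiment 1 (circles) and experiment 2 (squares), 2 libraries against 2. TMEM107 lies at −0.61 and −0.94 and KIAA0556 at 0.48 and 0.57, and the other genes lie between −0.18 and 0.17.

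Whether the knockout difference changed between the collections was tested, since the choice of genes did not use that contrast. The background was 0%, with 0 of 14898 genes past the threshold in edgeR's test, 248 (1.66%) at an unadjusted p under 0.05, and 0 in DESeq2. TMEM107 had the largest shift among the members: its knockout log2 fold change was −0.61 in experiment 1 and −0.94 in experiment 2. The difference was −0.33 (SE 0.33, edgeR adjusted p 1). For KIAA0556 the values were 0.48 and 0.57, with a difference of 0.09 (SE 0.22, edgeR adjusted p 1). None of the 10 genes had an unadjusted p under 0.338 for this difference. With 2 libraries in each group, a shift of the size seen in TMEM107 was about as large as its error and could not be resolved.

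Guides of the same genotype were compared next, taking guide 2 minus guide 1. The background was again 0%, with 0 genes past the threshold in edgeR for ZRSR2 guides and 27 (0.181%) at an unadjusted p under 0.05, and with 0 in DESeq2. ZRSR2 mRNA itself was lower with guide 2, at a log2 difference of −0.47 (SE 0.16). KIAA0556 was higher with guide 2 by 0.32 (SE 0.19) and the difference for TMEM107 was −0.15 (SE 0.76), each with an edgeR adjusted p of 1. With the experiment as a block the differences were 0.31 (SE 0.13) for KIAA0556 and −0.15 (SE 0.24) for TMEM107. Neither passed the threshold, where 0 genes did and 376 (2.52%) had an unadjusted p under 0.05. The direction for TMEM107 turned in the fits without knockout replicate 2 and without knockout replicate 3, at 0.32 and 0.50, where no block separates the experiments. Against both control guides together, with the block, the log2 fold changes of TMEM107 were −0.71 for guide 1 and −0.86 for guide 2, and those of KIAA0556 were 0.36 and 0.68. These values share their controls. Between the non-targeting guides TMEM107 differed by 0.32 (SE 0.75) and KIAA0556 by −0.14 (SE 0.19). With the experiment as a block these control differences were 0.20 (SE 0.23) and −0.13 (SE 0.13). Of all genes 0 passed, with 13 (0.0873%) at an unadjusted p under 0.05 and 482 (3.24%) with the block.

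The experiments themselves differed for several of these genes, by a contrast on which they were not chosen. In edgeR's test 3 of the 10 genes rose and 3 fell from experiment 1 to experiment 2, or 6 of 10. Over all genes 58.2% passed, 29.6% higher and 28.6% lower, so this share is near the background. Each experiment had 1 collection, so day and batch cannot be told apart. TMEM107 changed most among the members. Its mean rose from 2.77 ± 0.729 to 6.91 ± 2.91 CPM (SD, n = 4), and all 4 libraries of experiment 2 lay above all 4 of experiment 1. The log2 fold change was 1.28 (SE 0.16, edgeR adjusted p 7.72e-05). The mean rose 2.72-fold among the controls and 2.16-fold among the knockout libraries.

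CC2D2A moved the other way, from 5.67 ± 0.500 to 3.30 ± 0.200 CPM (SD, n = 4). Its log2 fold change was −0.78 (SE 0.13), with an edgeR adjusted p of 3.46e-04. TMEM107 and CC2D2A held their calls in all 13 alternatives. The calls of the other 4 were smaller and did not all hold. TCTN2 rose by 0.32 on the log2 scale (SE 0.12) and B9D1 by 0.37 (SE 0.14), while TCTN3 fell by 0.31 (SE 0.10) and B9D2 fell by 0.32 (SE 0.11). Their edgeR adjusted p-values were between 0.0169 and 0.0416. Each lost the call in 3 to 7 of 13 alternatives, and the number of members called was 2 to 7 when a library was left out. It was 2 without control replicate 2 or knockout replicate 4. It was 3 without control replicate 1, knockout replicate 1 or knockout replicate 2, and in DESeq2. Over all genes the calls were 7178 to 9193 when a library was left out, beside 8671 with every library. DESeq2 called 56.6% of all tested genes. TCTN3 kept its call except without knockout replicates 1 or 4 or control replicate 2. TCTN2 lost it without knockout replicates 2 or 4 or control replicates 1, 2 or 4, B9D1 without knockout replicates 1, 2 or 4 or control replicates 1, 2 or 3, and B9D2 without knockout replicates 1, 2 or 4 or control replicates 1 or 2. TCTN2, B9D1 and B9D2 also lost it in DESeq2, and B9D2 with no count filter.

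MKS1, TMEM231, TCTN1 and KIAA0556 did not pass the threshold between experiments. Their log2 fold changes were 0.09 (SE 0.10), 0.11 (SE 0.12), 0.24 (SE 0.15) and 0.21 (SE 0.11). KIAA0556 passed without knockout replicate 3, at 0.32 (edgeR adjusted p 0.0186). In TCTN1 the libraries of the experiments did not overlap all the same, and the same held for the 6 called genes. That makes 7 of 10, against 56% of all tested genes.

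**Figure D3:**
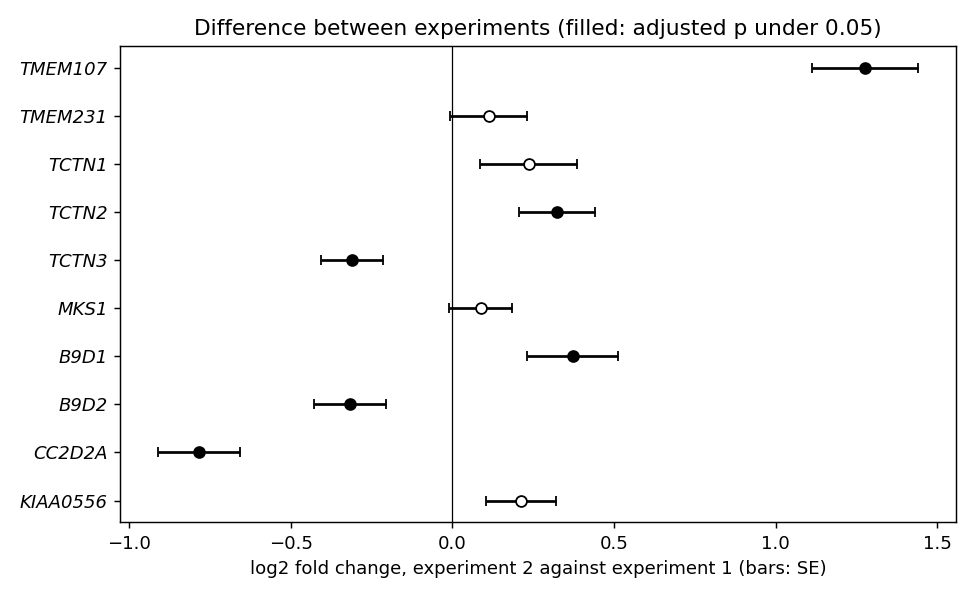
Log2 fold change of experiment 2 against experiment 1 for each gene, averaged over genotypes, with bars for the SE and filled points where the edgeR adjusted p was under 0.05. TMEM107 stands at 1.28 and CC2D2A at −0.78, and the remaining genes lie between −0.32 and 0.37.

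Levels were also set side by side between genes, per kb of the principal GENCODE 29 transcript, in the 4 control libraries. MKS1 had the highest mean, at 12.3 ± 1.47 CPM per kb (SD, n = 4), followed by TCTN3 at 10.8 ± 1.48 and TMEM107 at 8.32 ± 4.86 CPM per kb. B9D2 was at 6.19 ± 0.563, KIAA0556 at 5.17 ± 0.504 and B9D1 at 4.76 ± 0.813 CPM per kb. TCTN2 was at 2.38 ± 0.410, TMEM231 at 2.15 ± 0.223, TCTN1 at 1.5 ± 0.130 and CC2D2A at 0.807 ± 0.245 CPM per kb. The span from CC2D2A to MKS1 was 15.2-fold. From MKS1 down to B9D1 each gene's control libraries overlapped those of the next in the order. MKS1 and TCTN3 nonetheless lay above B9D2, KIAA0556 and B9D1 in every control library, while TMEM107 overlapped all 5. TCTN2 and TMEM231 also overlapped, while B9D1 lay above TCTN2, TMEM231 above TCTN1 and TCTN1 above CC2D2A in every control library. The lengths are those of single annotated transcripts, and other transcripts of a gene would give other levels. TMEM107 spread most, from 4.0 to 14.5 CPM per kb, along the difference between experiments.

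**Figure D4:**
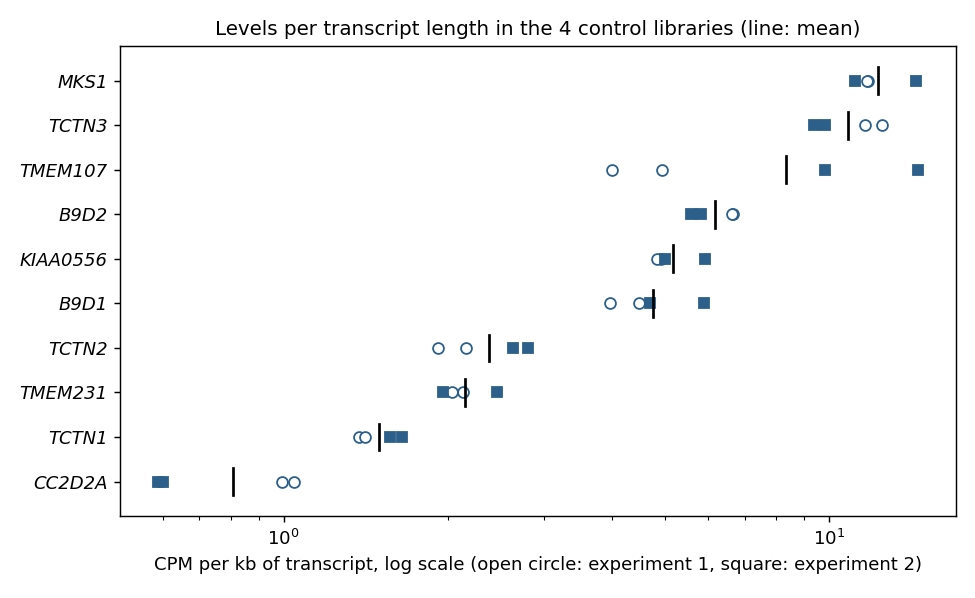
Level per kb of transcript on a log scale in the 4 non-targeting libraries, with experiment 1 as open circles, experiment 2 as filled squares and a line at the mean. MKS1 and TCTN3 lie highest and CC2D2A lowest, and TMEM107 spans from 4.0 to 14.5 CPM per kb.

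The genes whose libraries followed TMEM107 most closely were sought among 11014 genes, by Pearson's r of log2 CPM over 8 libraries after each experiment's mean was removed. They were DFNA5, PLOD1, SERTAD3, H19 and CNNM4, with r between 0.970 and 0.987. H19, an imprinted noncoding RNA, was highest in control replicate 4 at 146 CPM, as TMEM107 was. For KIAA0556 the closest included TRAF3IP1, COLGALT2, WWOX and ZNF16, with r between 0.959 and 0.976. COLGALT2 measured 17.0, 20.5, 21.8 and 26.7 CPM in replicates 1 to 4 of the knockout, and 14.7, 13.5, 20.4 and 18.2 CPM in the controls. TRAF3IP1 is itself a ciliary gene, a subunit of the transport complex IFT-B. All these values rest on the same 8 libraries and on genotype differences within them.

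Neighbouring genes were examined beside the 2 leading members. They were matched to the annotation by symbol, so a closer or overlapping gene counted under another name would be missed. The nearest tested gene so matched before TMEM107 on the chromosome is VAMP2, a vesicle fusion protein. Its knockout log2 fold change was −0.15 (SE 0.11). The nearest so matched after TMEM107 is AURKB, a mitotic kinase, at −0.06 (SE 0.17). The annotation also places the small nucleolar RNA gene SNORD118 within TMEM107 on the same strand, and its level was not used here. GTF3C1, a subunit of a transcription factor of RNA polymerase III, begins 220 bases before KIAA0556 on the opposite strand and was at 0.02 (SE 0.08). XPO6, a nuclear export receptor on the other side, was at −0.01 (SE 0.17). Annotated genes of the opposite strand overlap KIAA0556, MKS1, TCTN1, TCTN2, B9D1, B9D2 and CC2D2A. Genes of the same strand overlap TMEM107, KIAA0556, B9D1 and TMEM231. Reads may thus have been divided between genes, and these counts are uncertain. The deposited table holds an overlapping gene only for TCTN1, MKS1, B9D1 and B9D2. Among the overlapping genes, HVCN1, a proton channel that lies across from TCTN1, rose by 1.48 on the log2 scale between experiments (edgeR adjusted p 2.77e-05). TMEM91, across from B9D2, rose by 0.59 (edgeR adjusted p 0.00187), while B9D2 fell.

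The wider set of ciliary genes was described through lists chosen by role. Of 118 further genes, 106 were tested. Between genotypes 0 of 106 passed the threshold in edgeR's test with genotype alone, in DESeq2, and in each of the alternatives, including those with the experiment as a block. At an unadjusted p under 0.05 there were 0, and 5 of 106 with the block, a share near the 4.63% of all tested genes. Those 5, named after their values were seen, were WDR60, KATNAL2, TMEM17, KIF7 and TRAF3IP1, with edgeR adjusted p-values with the block from 0.942 to 1. WDR60, a subunit of the motor that carries cargo back down the cilium, had a blocked log2 fold change of −0.40 (SE 0.15). TMEM17, another membrane protein of the transition zone, was at 1.02 ± 0.172 CPM in knockout and 1.43 ± 0.264 CPM in control libraries (SD, n = 4). The median log2 fold change of the 106 genes was 0.01, beside −0.003 for all tested genes.

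Other transition zone genes, such as CEP290 and RPGRIP1L, had a median knockout log2 fold change of 0.01 over 17 tested genes, from −0.49 to 0.16. The 19 other Joubert-type genes had a median of 0.02, from −0.22 to 0.18. Katanin subunits, the partners of KIAA0556, had a median of −0.06 over 5 genes. The IFT-B complex, which carries cargo outward, had a median of 0.03 over 16 genes, and IFT-A with the cilium motors −0.02 over 14. The BBSome, a membrane cargo adaptor, had a median of 0.07 over 13 genes. None of these lists held a gene past the threshold, and the largest absolute value in them was that of TMEM17.

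Between experiments 57 of the 106 genes passed the threshold in edgeR's test, or 53.8%, with 33 higher and 24 lower in experiment 2. That is near the 58.2% of all tested genes. Without control replicate 1 the number was 37, where 7246 genes passed over all genes, beside 8671 with every library. Among Hedgehog pathway genes, whose signal passes through the cilium, 4 rose and 2 fell of 9. SMO, the membrane protein that starts the intracellular signal, rose from 11 ± 1.48 to 23.8 ± 1.34 CPM (SD, n = 4). KIF7, a kinesin of the same pathway, rose from 10.2 ± 0.429 to 24.3 ± 2.80 CPM. PTCH1, the Hedgehog receptor, fell by 0.91 on the log2 scale (SE 0.36, edgeR adjusted p 0.0470), a call that was lost in 8 of 13 alternatives, among them those without any 1 of knockout replicates 1 to 3 or control replicates 1 to 3. CEP97, IFT80 and TTBK2 rose by 1.02, 0.92 and 0.89. CEP97 caps centrioles, IFT80 belongs to IFT-B and TTBK2 is the kinase that starts cilium assembly.

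IFT22, NPHP4, TUBB4B and TRAF3IP1 fell by 1.01, 0.97, 0.92 and 0.78 on the log2 scale. NPHP4 acts in the transition zone beside the MKS complex, IFT22 and TRAF3IP1 belong to IFT-B, and TUBB4B is a tubulin also used outside cilia, which went from 653 ± 60.4 to 346 ± 41.5 CPM (SD, n = 4). Except for PTCH1, the genes named for this contrast held their calls in all 13 alternatives. Over all tested genes 29.6% were higher and 28.6% lower in experiment 2, and no departure of a list from these shares was tested. By list, IFT-A and motors had 7 higher and 2 lower of 14, the BBSome 5 and 2 of 13, and centriole genes 6 and 2 of 13. Other Joubert-type genes had 7 higher and 6 lower of 19, other transition zone genes 3 and 5 of 17, IFT-B 2 and 3 of 16, and katanin subunits 1 and 1 of 5. Genes of multiciliated cells were nearly absent: FOXJ1, their main regulator, had at most 5 counts in a library, DNAH5 at most 3, DNAI1 at most 1 and TEKT1 0. TUBB4B and RSPH1 were the 2 of 10 that were tested. IFT74, a core IFT-B subunit, is listed at 0 in all 8 libraries, while the other IFT-B genes had at least 52 counts in each. Whether reads could be assigned to the IFT74 symbol was not tested, so this 0 is not read as absence.

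**Figure D5:**
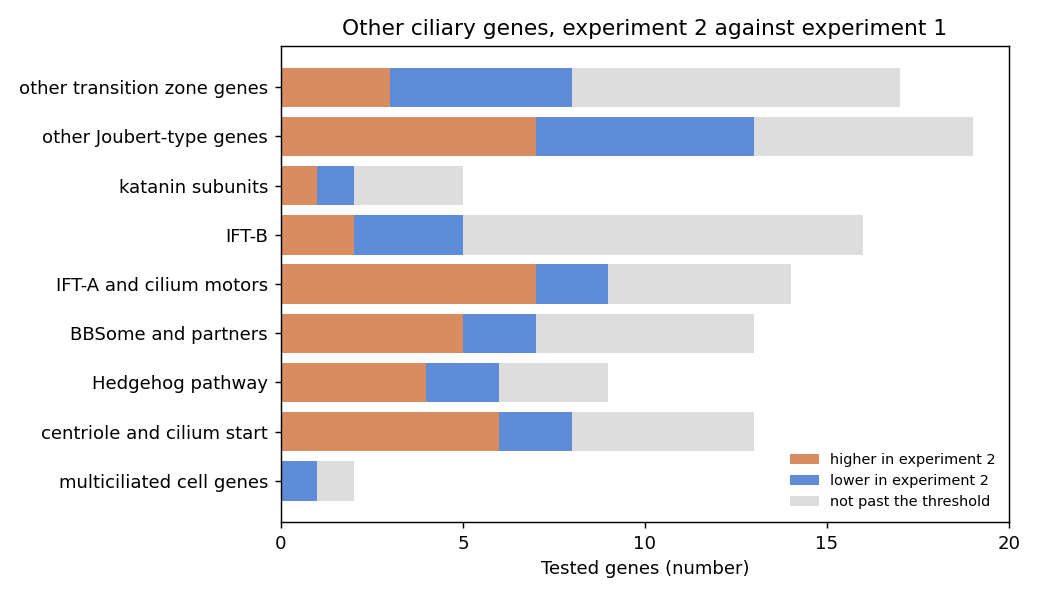
Number of tested genes on each list of other ciliary genes that were higher or lower in experiment 2 than in experiment 1 at an edgeR adjusted p under 0.05, or did not pass. Higher and lower calls were 7 and 2 for IFT-A with motors and 5 and 2 for the BBSome with partners. They were 6 and 2 for centriole genes, 4 and 2 for Hedgehog genes and 7 and 6 for other Joubert-type genes. Other transition zone genes had 3 and 5, IFT-B 2 and 3, katanin subunits 1 and 1, and multiciliated cell genes 0 and 1. Over all tested genes 29.6% were higher and 28.6% lower.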

How the data were processed

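The authors deposited RSEM expected counts per gene symbol for 8 mRNA libraries. Per the submitters' processing notes, RSEM 1.2.30, cutadapt 1.11 and the hg19 build were used; aligner, annotation and use of strand are not given in the sources used here. Per the labels' protocols, RNA was column-purified with DNase digestion and a Kapa mRNA kit was used for the libraries. The expected counts were whole numbers already, and rounding changed 0 of them; 0 columns belonged to other samples, and 5151 symbols had no count. Gene positions and sequences come from GENCODE 29 (GRCh38) and RefSeq (GRCh38.p14), another build than that of the counts, and were matched by symbol; KIAA0556 was matched as KATNIP among promoters.

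Genes were filtered with filterByExpr on genotype and scaled by TMM. Tests used quasi-likelihood fits in edgeR, and p-values were adjusted by Benjamini and Hochberg's method over 14898 genes, with a threshold of 0.05. Genotype was the sole term in the genotype fit, 4 cells of genotype by experiment gave the experiment and difference contrasts, and 4 guides gave the guide contrasts. SE values were derived from F. 1 count was worth 0.0143 to 0.0324 CPM, and a floor of 3 counts 0.0428 to 0.0971 CPM, counting error only. Log2 CPM values for patterns and pairing used a prior count of 2. The tests were checked on simulated data. Tools were R 4.3.3, edgeR 4.0.16, limma 3.58.1, DESeq2 1.42.0, Python 3.11.15 and matplotlib 3.10.9.

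The members and lists were chosen with earlier results of these data known. All members are named; from the lists, up to 5 genes per direction of largest change among those called, averaging 1 CPM or more; for pattern likeness, the top 5 genes with a mean of at least 5 CPM. Some items these rules select are not reported here. Promoter and intron motifs are textbook motifs, and the promoter search was added after expression values had been seen. Introns under 60 bases were left out, and branch matches had to end 5 to 40 bases before the intron's end.

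The experiment number ties the libraries of both genotypes to one collection. Deviations from genotype means correlated at 0.678 to 0.846 in 8 pairs from the same experiment. In 8 pairs from different experiments they correlated at −0.816 to −0.709. Deviations cancel within a genotype, so the negative values follow from the positive ones and are not separate evidence. The main genotype and guide fits nonetheless held no term for the experiment, which entered those comparisons only as the block. Alternatives were other scaling, count filters, DESeq2, the block and leaving out each library. P-values measure the spread between libraries, each experiment being 1 collection of cultures.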

Additional observations from a re-analysis of the deposited data

Results flagged for a closer look

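Each of the 10 members and ZRSR2 was searched, within each genotype, for a library far from the other 3. Among these 22 sets chance gives about 1.1, and 2 were found. KIAA0556 in control replicate 3 was at 39.1 CPM, with the other controls at 32.0 to 33.1 CPM, and its gap took 0.846 of the group's range. That library also had the largest total, 71521173 counts, and a part of depth in the value was not tested. TMEM231 in knockout replicate 3 was at 10.8 CPM, with the other knockout libraries at 8.67 to 8.99 CPM, and its gap took 0.850 of the range.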

How the results depend on the processing

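Of 673 values computed for 43 results under other settings, 624 were counted as unchanged. They led to no other call and, for counts, to no shift beyond 1.5 times. A turned direction was counted as a change, except in the members' genotype log2 fold changes, where turned signs are among the 624. Genotype calls over all genes were 0 with the replicate block in edgeR, 4 with DESeq2 and 31 with DESeq2 and the block; leaving out a library gave 0 throughout with genotype alone and 0 to 12 with the block, an alternative chosen after seeing the data. The 12 came without control replicate 3, and 1 came without knockout replicate 3. The replicate block changed no other call in the genotype and guide comparisons. The difference between experiments in the knockout effect had 5 calls with no count filter. Guide comparisons had 0 calls under every alternative. Members called between experiments were 3 with DESeq2 and 2 to 7 without 1 library. Other listed ciliary genes called were 37 to 60 without 1 library. Over all genes the calls between experiments were 8427 with DESeq2 and 7178 to 9193 without 1 library. Signs turned when 1 library was left out for MKS1 between experiments (−0.011 to 0.17, negative without control replicate 3), for TMEM107 between ZRSR2 guides (−0.82 to 0.50, with 0.32 and 0.50 without knockout replicates 2 and 3), and for KIAA0556 in the difference between experiments (−0.14 to 0.29, with −0.14 and −0.0037 without knockout and control replicate 4). None of these 3 had passed the threshold, and the cause was not tested. Genotype log2 fold changes near 0 also turned sign with 1 library left out, in the fit with genotype alone. The ranges were −0.062 to 0.088 for TMEM231, −0.13 to 0.038 for TCTN1 and −0.034 to 0.085 for MKS1. They were −0.15 to 0.089 for B9D1, −0.14 to 0.026 for B9D2 and −0.015 to 0.31 for CC2D2A. The lowest count of a member in a library was 80, so small shifts in TCTN1 or TMEM107 are limited by depth.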
